A study of Actinidia chinensis with 12 samples.

Results

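In ripened kiwifruit, 47 genes gave at least 8 times more signal in the cultivar Jinyan than in the cultivar Hongyang, in whole fruit as well as in flesh core. They were chosen by measured values among 22199 genes with enough counts to be tested, out of 39040 identifiers. The value used was the group median plus 1 of CPM, the counts scaled to the TMM-adjusted library size. A gene was a member when the Jinyan to Hongyang ratio of these medians was at least 8 in each tissue and at least 1 count lay in some Hongyang library. Another 5 genes passed both ratios with 0 counts in every Hongyang library and are not members. The mirrored rule, with Hongyang above Jinyan and at least 1 Jinyan count, was met by 46 genes.

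The members were read in 4 groups of 3 libraries, which are whole fruit and flesh core of Jinyan and whole fruit and flesh core of Hongyang. All fruit was picked ripe, and the labels name no treatment, no genotype beyond the cultivar and no separate trees or fruits behind the replicates. The p-values therefore measure the spread between these libraries, which may be technical. The series design calls the non-core tissue the periphery, whereas the sample labels say whole fruit, so the core may be contained in the samples it is compared with.

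The kiwifruit is a berry in which a pale central core is surrounded by an inner pericarp with locules and seeds, and then by the outer pericarp and skin. Hongyang is a red-fleshed cultivar with anthocyanin pigment around the core. Jinyan is a yellow-fleshed cultivar bred from a cross between Actinidia eriantha and Actinidia chinensis. The deposited table lists identifiers that are not paired with gene names, so roles, positions and sequences of the members are not given. Tissue markers could not be matched to identifiers, and the labelled tissues were not checked against them.

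Library totals ran from 6870519 to 21222578 counts, apart from Hongyang whole fruit replicate 3 with 1888744. In that library 3 counts, the limit that a count of 0 allows, correspond to 1.19 CPM, against 0.142 to 0.393 CPM in the others. Of the members, 32 had 0 counts in that library, against 5 to 11 in each of the other 5 Hongyang libraries and none in any Jinyan library. CPM values are not corrected for transcript length, so each is compared between libraries and not between genes.

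The ratios that chose the members are given as a description. The median member had a ratio of 15.4 in whole fruit and 15.5 in core. The lower of both ratios ran from 8.05 to 2794, and it was at least 16 in 13 members and at least 100 in 4. Both ratios of a member lay within 2-fold of each other in 34 members, the whole fruit ratio was more than 2-fold larger in 7, and the core ratio was more than 2-fold larger in 6. In bulk tissue, fewer cells of a type and less RNA per cell cannot be told apart.

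**Figure D1:**
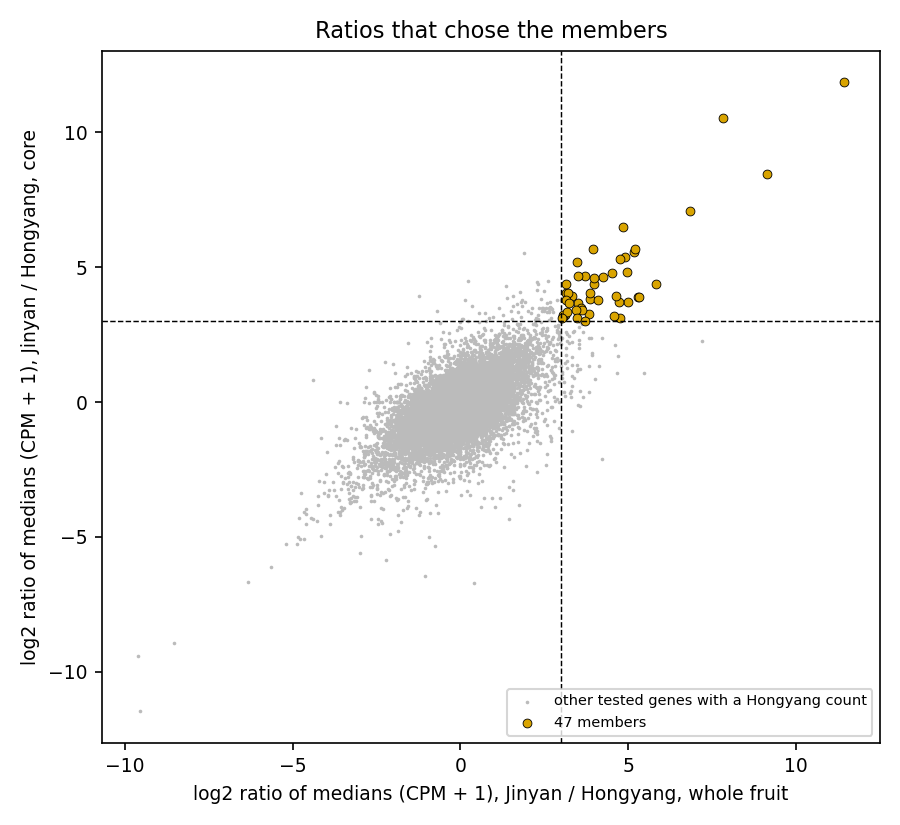
Each point is a tested gene with at least 1 Hongyang count, placed by the log2 ratio of group medians (CPM + 1) of Jinyan over Hongyang in whole fruit (horizontal axis) and in core (vertical axis). Dashed lines mark a ratio of 8, and the 47 members fill the upper right corner.

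The Jinyan libraries of each member lay above the Hongyang libraries of the same tissue without overlap in 47 of 47 members. Over all tested genes, 18.7% were higher in Jinyan without overlap in whole fruit and 25.3% in core. Since the rule used these contrasts, nothing is read from this count. All 6 Jinyan libraries lay above all 6 Hongyang libraries in 46 members, the exception being Achn332071, against 8.76% of all tested genes, and this count also follows from the contrasts of the rule. Summed over the members, the share of all counts was 0.951% ± 0.123 (SD, n = 3) for Jinyan whole fruit and 1.27% ± 0.163 (SD, n = 3) for its core. In Hongyang it was 0.046% ± 0.0103 (SD, n = 3) in whole fruit and 0.0379% ± 0.00502 (SD, n = 3) in core. Achn125851, Achn384171 and Achn231381 held 54% of the members' counts in Jinyan whole fruit and 67.4% in Jinyan core.

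**Figure D2:**
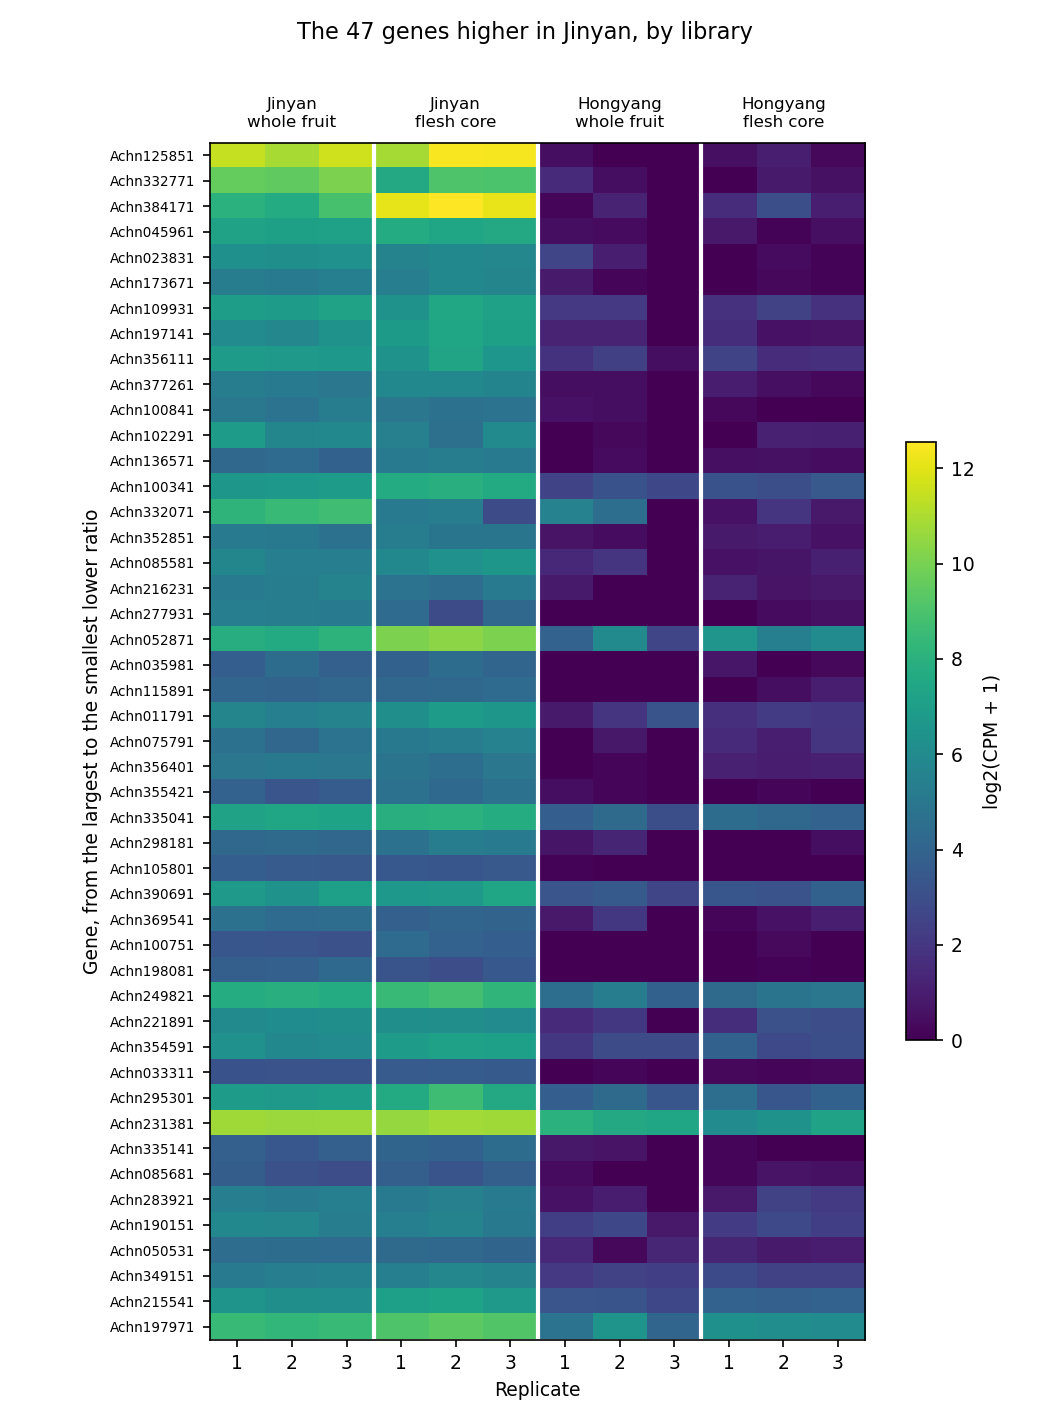
The colour gives log2(CPM + 1) of the 47 members (rows, from the largest to the smallest lower ratio) in the 12 libraries (columns, by group and replicate). Within each tissue the Hongyang columns are lower than the Jinyan columns in each row, and Hongyang whole fruit replicate 3 holds 32 members at 0.

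The members differed in how much signal was left in Hongyang. In 21 of them the Hongyang median was under 1 CPM in both tissues, with 1 to 104 counts over the 6 Hongyang libraries. In 10 it was at least 5 CPM in both, with 629 to 13159 counts, and the other 16 lay in neither class. All 3 Hongyang whole fruit libraries were at 0 in 5 members, and all 3 Hongyang core libraries were at 0 in 1. In the 10 members with at least 5 CPM, the ratios ran from 8.1 to 15.8 in whole fruit and from 8.05 to 24.1 in core.

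Achn125851 had the largest ratio in both tissues, 2794 in whole fruit and 3728 in core. It stood at 2793, 1948 and 3264 CPM in Jinyan whole fruit replicates 1, 2 and 3, and at 1846, 5528 and 5412 CPM in the Jinyan core replicates. In Hongyang it had 5, 0 and 0 counts in whole fruit and 6, 22 and 4 counts in core. The lowest Jinyan library was 897 times the highest Hongyang library after adding 1 CPM, the widest such gap among the members. Jinyan core replicate 1 lay below all 3 Jinyan whole fruit libraries while core replicates 2 and 3 lay above them, and the tissue difference did not pass the test in Jinyan (log2 fold change 0.68 ± 0.49, SE; edgeR adjusted p = 0.35).

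Achn332771 had the second largest ratio in whole fruit, 558, and a ratio of 349.8 in core. Its Jinyan libraries stood at 773, 709 and 1098 CPM in whole fruit and at 189, 542 and 514 CPM in core. Its Hongyang libraries held 25, 7 and 0 counts in whole fruit and 0, 18 and 10 counts in core. The core libraries of Jinyan lay below its whole fruit libraries without overlap, but the difference did not pass the test (log2 fold change -1.05 ± 0.53, SE; edgeR adjusted p = 0.18). Achn045961 had the second widest gap between the cultivars, with its lowest Jinyan library 77.2 times its highest Hongyang library after adding 1 CPM. Its 6 Jinyan libraries lay close together, at 148, 140.2 and 146 CPM in whole fruit and 212, 168 and 191 CPM in core, against 5, 5 and 0 counts in Hongyang whole fruit and 11, 2 and 9 in Hongyang core.

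Achn231381 had the highest median CPM over the Hongyang libraries among the members. Its Jinyan libraries stood between 1542 and 1828 CPM in both tissues, and the Jinyan tissue difference was 0.01 ± 0.29 (log2 fold change, SE; edgeR adjusted p = 1). Hongyang whole fruit stood at 255, 189 and 167 CPM and Hongyang core at 65.9, 83 and 151 CPM. The Hongyang libraries did not overlap between tissues, with a log2 fold change of -1.03 ± 0.29 (SE) for core against whole fruit that did not pass the test (edgeR adjusted p = 0.061). The ratio between the cultivars was 8.89 in whole fruit and 21 in core.

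Near the threshold, Achn197971 and Achn215541 were the members with the smallest lower ratio, 8.05 and 8.1. Achn364951 and Achn123791, both with a lower ratio of 7.95, were just outside. Achn197971 stood at 359, 317 and 369 CPM in Jinyan whole fruit and 542, 672 and 572 CPM in Jinyan core. In Hongyang it stood at 26.3, 88.3 and 15.9 CPM in whole fruit and 78.7, 70.2 and 65 CPM in core, so that whole fruit replicate 2 lay above the core libraries and the other 2 below them. Achn364951 had 8 of its 12 Hongyang counts in the shallow whole fruit replicate 3.

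**Figure D3:**
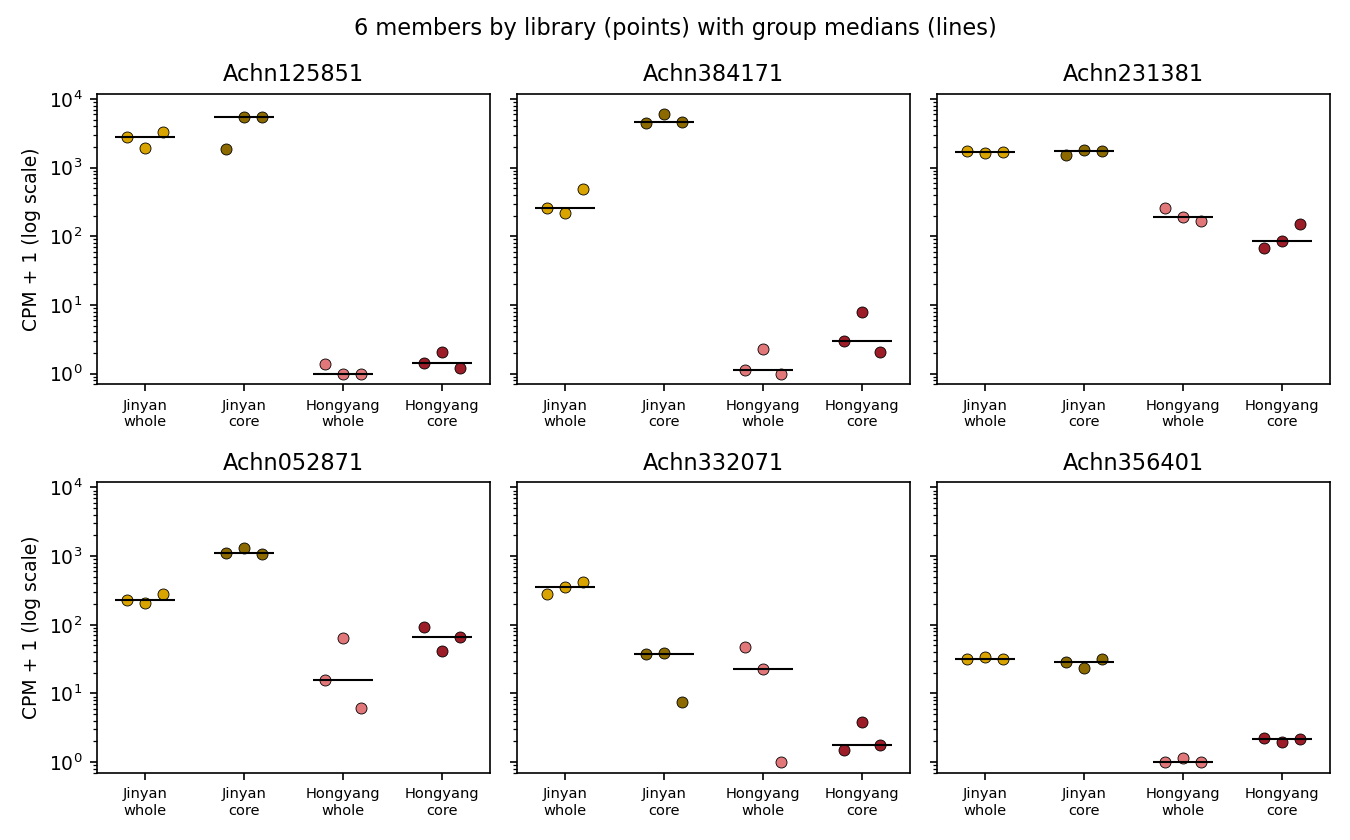
CPM + 1 on a log scale (vertical axis) of 6 members in the 4 groups (horizontal axis), with points for libraries in replicate order and lines for group medians. The Jinyan points of Achn384171, Achn052871 and Achn332071 separate core from whole fruit, whereas those of Achn231381 overlap.

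Core against whole fruit is a contrast that the rule did not use. The rule did demand signal in both Jinyan tissues, and no member had fewer than 61 counts in a Jinyan library. All tested genes were not held to this, and no share was computed for genes of matched level. In Jinyan, 6 of the 47 members (12.8%) were higher in the core and 1 (2.13%) was lower by edgeR's quasi-likelihood test over all tested genes, at an adjusted p under 0.05. Over all tested genes 8.15% were higher and 8.46% lower. The core libraries lay above the whole fruit libraries without overlap in 22 members (46.8%, against 25.9% of all tested genes) and below them in 7 (14.9%, against 22.2%). The median log2 fold change was 0.36 over the members and 0.04 over all tested genes. With library totals in place of TMM, 3 members were higher and 4 lower, and the medians became -0.11 and -0.40, so the direction rests on the scaling. Relative to the median of all genes, the members' median was 0.32 with TMM and 0.29 with library totals. It was 0.12 when genes with a mean under 5 CPM were left out, where the 45 members still tested had a median of 0.19 against 0.07. The count of 7 became 4, 3 and 3 without Jinyan whole fruit replicate 1, 2 and 3, 2 without Jinyan core replicate 2, and 15 without Hongyang whole fruit replicate 2 or without replicate 3. The Hongyang libraries are outside this contrast but enter the filter, the scaling and the shared estimate of spread. Which of these moved the counts was not tested.

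Achn384171 rose the most in the Jinyan core. It stood at 259, 214 and 481 CPM in Jinyan whole fruit and at 4435, 6023 and 4538 CPM in Jinyan core, 15.7-fold higher without overlap (log2 fold change 3.97 ± 0.64, SE; edgeR adjusted p = 0.003). It passed under each alternative tried (adjusted p of 8.5e-06 to 0.022). In Hongyang it had 2, 24 and 0 counts in whole fruit and 27, 145 and 23 counts in core, a log2 fold change of 2.28 ± 0.79 (SE) that did not pass (edgeR adjusted p = 0.11), and the tissue differences of the cultivars did not pass the test of their difference (adjusted p = 0.41).

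Achn052871 rose from 226, 207 and 280.4 CPM in Jinyan whole fruit to 1094, 1314 and 1082 CPM in Jinyan core, 4.89-fold (log2 fold change 2.29 ± 0.58, SE; edgeR adjusted p = 0.02). All 3 core libraries lay above the whole fruit libraries. The call was lost without Jinyan whole fruit replicate 1, 2 or 3 (adjusted p of 0.073, 0.08 and 0.06) and without Jinyan core replicate 2 (0.061). DESeq2 gave no adjusted p for this member. In Hongyang it stood at 14.6, 63 and 5.16 CPM in whole fruit and 91.4, 41.2 and 65.7 CPM in core, where whole fruit replicate 2 fell inside the range of the core and the difference did not pass (log2 fold change 1.19 ± 0.57, SE; edgeR adjusted p = 0.23).

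Achn332071 was the 1 member that passed the test as lower in the Jinyan core, from 284, 359.7 and 418 CPM in whole fruit to 36.6, 37.7 and 6.47 CPM (log2 fold change -3.72 ± 0.89, SE; edgeR adjusted p = 0.015). In Hongyang it stood at 45.8, 22 and 0 CPM in whole fruit and at 0.527, 2.84 and 0.805 CPM in core (log2 fold change -4.05 ± 0.97, SE; edgeR adjusted p = 0.032). Whole fruit replicates 1 and 2 lay above the Hongyang core libraries. Replicate 3, at 0 counts with a limit of 1.19 CPM, lay below core replicate 2 and could not be ordered against core replicates 1 and 3. The Jinyan call was lost without Jinyan core replicate 2 (adjusted p = 0.053) and without core replicate 3 (0.058). The Hongyang value was -3.15 without Hongyang whole fruit replicate 1 (adjusted p = 0.13). It was -5.11 when Hongyang core replicate 2 was left out (adjusted p = 0.064). That call was also lost without Hongyang core replicate 1 or 3 (0.093 and 0.12), without Jinyan whole fruit replicate 1, 2 or 3 (0.053, 0.052 and 0.05), and when the 6 Hongyang libraries were fitted alone (0.19).

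The other 4 members that passed in Jinyan, named after their values were seen, were Achn100341, Achn136571, Achn295301 and Achn215541. Achn100341 rose from 98.6, 103 and 116 CPM in whole fruit to 214, 237 and 204 CPM in core (log2 fold change 1.05 ± 0.2, SE; edgeR adjusted p = 0.0071) and passed under each alternative tried (adjusted p of 6.5e-06 to 0.037). Achn136571 rose 2.08-fold (adjusted p = 0.025) and lost its call with library totals (0.16) and without any 1 of the 6 Jinyan libraries (0.058 to 0.11). Achn295301 rose 2.21-fold (adjusted p = 0.039), with 402 CPM in core replicate 2 against 203 and 190 in the others. It lost its call without core replicate 2 (0.18), without whole fruit replicate 1, 2 or 3 (0.1, 0.13 and 0.094), without Hongyang core replicate 3 (0.056) and with library totals (0.13). Achn215541 is described with Hongyang below.

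Among the 10 members with at least 5 CPM in both Hongyang tissues, 4 passed in Jinyan, each higher in the core, against 8.15% of all tested genes. The core libraries lay above the whole fruit libraries without overlap in 8, against 25.9%. Their Jinyan log2 fold changes ran from 0.01 to 2.29. In Hongyang they ran from -1.03 to 1.19, with 8 positive. These counts and values used TMM, and with library totals the Jinyan median over all members changed from 0.36 to -0.11. The class was cut on Hongyang levels, which the rule used. All tested genes include genes with few counts, so the shares are not matched for level. Of the 4 calls, those of Achn052871, Achn295301 and Achn215541 were each lost in several alternatives.

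In Hongyang, 3 members (6.38%) were higher in the core and 3 (6.38%) lower by edgeR, against 2.5% and 2.18% of all tested genes. Overlap between the Hongyang tissues is not counted over the members, since whole fruit replicate 3 was at 0 counts in 32 of them, which sets its order against the core beforehand. With library totals 2 were higher and 4 lower. When the 6 Hongyang libraries were fitted alone, 0 of 27 members tested passed edgeR, with 6 at an unadjusted p under 0.05. Over all genes tested in that fit 76 passed, against 1039 in the fit of 12 libraries, so the calls fell for all genes. Achn023831 and Achn335141 were filtered out of that fit and not tested in it. Its 27 members are therefore not the same set as the 27 with at least 60 Hongyang counts. DESeq2 on all libraries called 13, and 2588 of all genes. The count of 6 became 3 without Jinyan whole fruit replicate 1, 2 or 3, 2 without Hongyang whole fruit replicate 1, 16 without Hongyang whole fruit replicate 2, 2 without Hongyang core replicate 2 and 3 without Hongyang core replicate 3. Without the shallow Hongyang whole fruit replicate 3 it was 7, with 1 higher and 6 lower. Over all tested genes, the 1039 became 175, 4370 and 1161 without Hongyang whole fruit replicate 1, 2 and 3. Without Hongyang core replicate 2 or 3, 266 and 360 genes passed, and 648 to 689 without 1 Jinyan whole fruit library. The Hongyang whole fruit libraries stood apart from each other: of the 27 members with at least 60 counts over the Hongyang libraries, 14, 23 and 6 reached the lowest core library in whole fruit replicate 1, 2 and 3, with 2, 0 and 12 of them at 0 counts. The part of these library differences in the Hongyang results was not tested.

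Of the 3 members that passed as higher in the Hongyang core, Achn356401 had the largest fold change, with 0, 3 and 0 counts in whole fruit against 16, 20 and 25 counts in core. Scaled to library size, this is a ratio of 12.7 (95% exact interval 4.14 to 63.2, counting error only). The log2 fold change was 3.56 ± 0.54 (SE; edgeR adjusted p = 0.0045), with 2.87 without Hongyang whole fruit replicate 1. All 3 whole fruit counts lay in replicate 2, and the fitted value without that library, 6.85, is no bound. The call was lost when the 6 Hongyang libraries were fitted alone (adjusted p = 0.18).

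Achn283921 rose from 7, 17 and 0 counts to 11, 90 and 71 counts in the Hongyang core (log2 fold change 2.12 ± 0.54, SE; edgeR adjusted p = 0.042). The call was lost in the 6 Hongyang libraries alone (adjusted p = 0.28) and without any 1 library (0.051 to 0.16) other than Hongyang whole fruit replicate 2 (0.021, log2 fold change 2.79) or Hongyang core replicate 1. Its Jinyan libraries stood at 40.1, 34.8 and 41.7 CPM in whole fruit and 34.5, 43.7 and 36.8 CPM in core, which overlapped.

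Achn023831 fell the most in the Hongyang core, with 71, 20 and 0 counts in whole fruit against 0, 6 and 2 in core (log2 fold change -4.07 ± 0.8, SE; edgeR adjusted p = 0.015). The value was -2.57 without Hongyang whole fruit replicate 1, where the call was lost (adjusted p = 0.099), as it was without Hongyang core replicate 3 (0.065), and it was -5.25 without Hongyang core replicate 2. In Jinyan it stood at 77.1, 75.3 and 80.1 CPM in whole fruit and 48, 57.9 and 54.6 CPM in core, without overlap but not past the test (log2 fold change -0.53 ± 0.45, SE; edgeR adjusted p = 0.43).

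The remaining 2 members that passed in Hongyang, named after their values were seen, were Achn335141 and Achn215541. Achn335141 had 10, 11 and 0 counts in whole fruit and 2, 0 and 0 in core, a ratio of 16.8 in favour of whole fruit (95% exact interval 4.11 to 148, counting error only; edgeR adjusted p = 0.027). That call did not hold with Hongyang whole fruit replicate 1 left out (adjusted p = 0.11), nor with core replicate 2 or 3 left out (0.11 and 0.098). Achn215541 was higher in the core of both cultivars. It rose from 88.8, 75.9 and 70.7 CPM to 134, 156 and 109 CPM in Jinyan (log2 fold change 0.76 ± 0.2, SE; edgeR adjusted p = 0.02). In Hongyang it rose from 8.87, 8.49 and 5.56 CPM to 14.5, 13.4 and 14.4 CPM (log2 fold change 0.83 ± 0.21, SE; edgeR adjusted p = 0.041). Neither pair of groups overlapped. The Jinyan call was lost with library totals (0.26) and without Jinyan whole fruit replicate 2 or 3 (0.078 and 0.087) or core replicate 2 (0.081). The Hongyang call was lost with library totals (0.075), in the 6 Hongyang libraries alone (0.23) and without any 1 library (0.051 to 0.12) other than Hongyang whole fruit replicate 2 or Jinyan core replicate 3.

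The tissue differences of both cultivars come from separate libraries in 1 fit with a shared estimate of spread. In the 27 members with at least 60 Hongyang counts they had the same sign in 17 (63%), against 63.3% of all tested genes, and over all 47 members in 29 (61.7%). Across these 27 members the Pearson correlation was 0.578 and the Spearman correlation 0.363. Across all 47 members they were 0.18 and 0.0397, and across all tested genes 0.424 and 0.393. Members share libraries and depth and are no independent replicates. Achn332071 and Achn215541 passed in both cultivars, the first lower and the second higher in the core.

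**Figure D4:**
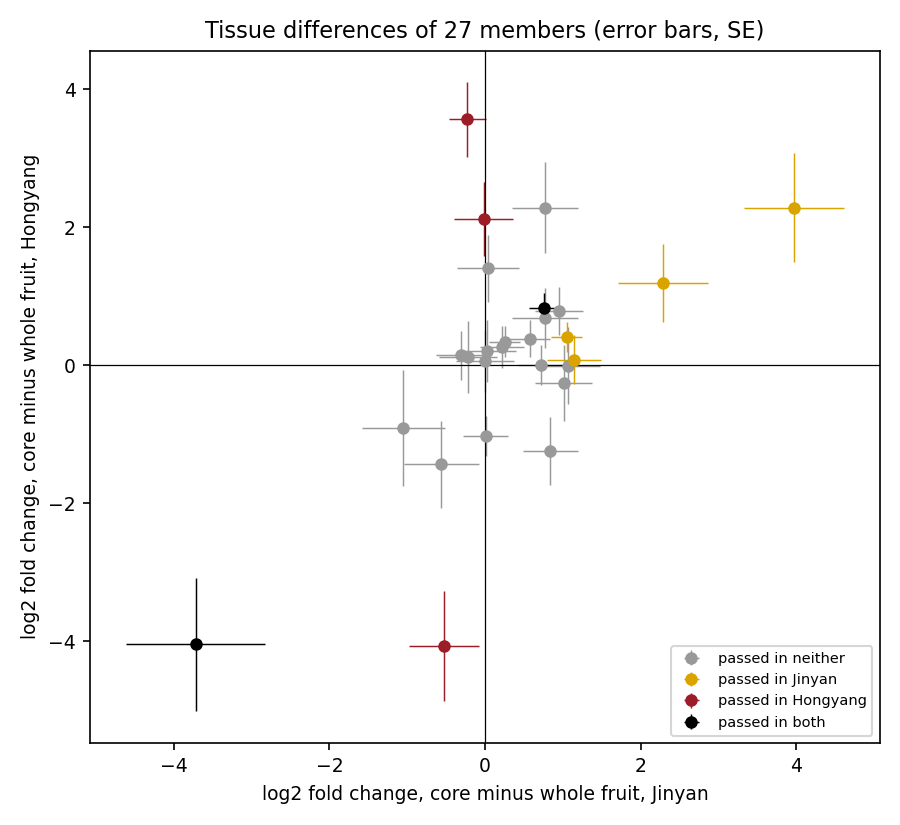
Log2 fold change of core minus whole fruit in Jinyan (horizontal axis) and Hongyang (vertical axis) for the 27 members with at least 60 Hongyang counts, with SE as error bars and colour for the test passed. The point at the lower left is Achn332071, the one at the far right Achn384171, and the top one Achn356401.

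An interaction term, the Hongyang tissue difference minus that of Jinyan, tested whether the cultivars differ in how core and whole fruit compare. It is also the difference of the 2 contrasts that the rule used, so the rule does not fix its sign but can bear on its size. It called 1 member with a positive interaction (2.13%, against 1.25% of all tested genes) and 1 with a negative one (2.13%, against 1%). Achn356401 had an interaction of 3.78 ± 0.6 (log2, SE; edgeR adjusted p = 0.0087). Its Jinyan libraries stood at 30.6, 32.4 and 30.9 CPM in whole fruit and 27.4, 22.1 and 30.6 CPM in core, so that both tissues reach 30.6 CPM, while Hongyang had 3 counts in whole fruit and 61 in core. Achn335141 had an interaction of -4.13 ± 0.91 (log2, SE; edgeR adjusted p = 0.035), with 13.2, 9.57 and 13.6 CPM in Jinyan whole fruit and 15.3, 13.9 and 20.4 CPM in Jinyan core, whereas Hongyang held 21 counts in whole fruit and 2 in its core. Its fitted tissue difference was -3.68 ± 0.83 in Hongyang (log2, SE) and 0.45 ± 0.36 in Jinyan (log2, SE; edgeR adjusted p = 0.42). The fitted signs were opposite and the size was larger in Hongyang, but the Jinyan difference did not pass the test. The count of 2 was 1 without any 1 of the 6 Jinyan libraries or without Hongyang core replicate 2, 5 without Hongyang whole fruit replicate 3 and 7 without Hongyang core replicate 1.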

How the data were processed

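Per the labels' protocols, RNA was extracted with CTAB, selected with oligo(dT), fragmented and primed with random hexamers for paired-end Illumina sequencing. Per the submitters' processing notes, Trimmomatic 0.36 and HISAT2 2.1.0 were used. Not given in the sources used here are the counter, the genome build, the annotation and how reads shared by near-identical or overlapping genes were handled, so that counts of such genes are uncertain. The authors deposited raw counts per gene, 1 column per library, matched to samples by the description label.

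Counts were filtered (filterByExpr on the 4 groups), TMM-scaled and fitted in edgeR 4.0.16 (R 4.3.3) by 1 quasi-likelihood model of 4 group means over 12 libraries, with Benjamini-Hochberg adjustment over 22199 genes, two-sided. SEs were derived from the F statistic. The fit was also run on simulated counts with the same spread in all 4 groups. That run does not cover the wider spread of Hongyang whole fruit, nor genes with few counts in Hongyang only, and nothing is read from it here. Replicates of a group differed by more than sampling noise (chi-square over degrees of freedom from 5.76 to 126). Counted reads can share a molecule, and intervals and limits therefore include counting error alone. Members, lists and tests were chosen with earlier results of these data known. Lists of pathway and tissue genes had no match among bare identifiers and stayed untested. Named are the 2 members at each end of a measure (Jinyan level, ratio, gap, Hongyang level, tissue and interaction values that passed, threshold). Alternatives were other scalings, filters, DESeq2 1.42.0, halved counts (in case both reads of a pair were counted), a replicate block, fits of 6 libraries and leaving out each library. The cultivar contrasts were used by the rule and carry no test here.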

Additional observations from a re-analysis of the deposited data

Results flagged for a closer look

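The tissue difference of Achn356401 differed between the cultivars, by 3.78 on the log2 scale (Hongyang minus Jinyan), as tested by the interaction. It passed under each of the 19 alternatives run for it (adjusted p of 0.00054 to 0.028). The value was 3.07 without Hongyang whole fruit replicate 1. It was 7.07, which is no bound, without replicate 2, which holds all 3 whole fruit counts. Each alternative kept an estimate of spread shared by all groups. The coefficient of variation between replicates was 0.514 in Hongyang whole fruit, against 0.165 to 0.242 in the other groups. With the Hongyang libraries fitted alone, the Hongyang tissue difference of this member did not pass (edgeR adjusted p = 0.18). That fit cannot test the interaction. The interaction is the difference of the contrasts that the rule used, so the rule can bear on its size.

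The tissue difference of Achn335141 also differed, by -4.13 on the log2 scale, and rests on 23 Hongyang counts. The call was lost without Jinyan whole fruit replicate 1, 2 or 3 (adjusted p of 0.075, 0.089 and 0.075), without Jinyan core replicate 1, 2 or 3 (0.064, 0.07 and 0.073), without Hongyang whole fruit replicate 1 or 2 (0.084 and 0.051) and without Hongyang core replicate 2 or 3 (0.1 and 0.11). Without Hongyang core replicate 1 the core had 0 counts, and the fitted -6.43 is no bound. The shared estimate of spread and the link to the rule limit this result as well.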

How the results depend on the processing

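The number of members, 47, was 72 with 0.5 CPM added, 14 with 5 CPM added, 177 at a ratio of 4, 13 at a ratio of 16, 24 when the lowest Jinyan library was set against the highest Hongyang library, and 41 to 52 without 1 library. Members passing the tissue test in Jinyan, 7, were 25 in the 6 Jinyan libraries alone, 13 with halved counts, 11 with DESeq2 and 2 to 15 without 1 library. Over all genes tested, 3688 became 6878, 4039, 5367 and 1382 to 6423 in these settings. Members passing in Hongyang, 6, were 0 in the 6 Hongyang libraries alone, where 27 members were tested, 13 with DESeq2 and 2 to 16 without 1 library. Over all genes tested, 1039 became 76, 2588 and 175 to 4370. Members passing the interaction, 2, were 5 without a filter, 7 with DESeq2 and 1 to 7 without 1 library. The cause was not tested, except that a fit without a library has fewer samples. The labels do not say whether replicate numbers pair the libraries. Deviations of same-numbered libraries correlated at -0.06 to 0.17, above 0.1 in 1 of 18 pairs, which cannot settle it. With the replicate block 6, 5 and 2 members passed in Jinyan, Hongyang and the interaction, and 2 calls were lost, Achn295301 in Jinyan (adjusted p = 0.058) and Achn283921 in Hongyang (0.053). The 15 calls of named members kept their direction under all 295 alternative values and passed in 223. At the depth of Hongyang whole fruit replicate 3, a count of 0 allows up to 1.19 CPM, so that levels under this can be missed there. They are not always missed, as Achn356111 was counted there at 0.397 CPM.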
